A study of Bos taurus with 30 samples.

Results

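The 200 expressed genes that varied most between calves were examined in messenger RNA of the arcuate nucleus, a small region of the ventral hypothalamus. They were chosen from the deposited table of 27607 gene identifiers and 30 libraries, whose values are CPM (reads of a gene relative to all reads of its library) scaled by TMM, a correction for differences in library make-up. Genes with a lowest value of at least 0.5 and a median of at least 5 numbered 12090, and 11890 remained after the 200 with the highest medians were dropped. Of these, the 200 with the largest interquartile range of log2(value + 0.5) over all libraries were taken, which is 1.68%. Diet was not used in that choice, but the range ran over both dietary groups, so a dietary difference would add to it.

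Calves were Holstein-Friesian bulls, and each library came from 1 animal. From 2 to 12 weeks of age, HI calves (high plane of nutrition, n = 15) were given 1.5 kg of milk replacer in 10 litres daily, with concentrate to appetite. MOD calves (moderate plane, n = 15) were given 0.5 kg of milk replacer in 4 litres and 0.5 kg of concentrate daily. Daily gains of 1.0 kg (HI) and 0.5 kg (MOD) were expected, all tissue was taken at 12 weeks, and the sources used here name no other treatment. Replicate numbers only name a calf. Per the paper, calves came from several farms and sires, and the dietary groups were balanced for these and for age and bodyweight. The labels used here give no farm or sire of a calf, and no fit included them.

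The arcuate nucleus holds neurons that raise or suppress appetite, neurons that drive the pulses of gonadotropin releasing hormone, and dopamine neurons that restrain prolactin. It lies beside the third ventricle and above the median eminence and the pituitary stalk, so it borders ependymal cells, tanycytes and neurosecretory endings. Hormones such as leptin, insulin and ghrelin reach it from the blood and report nutritional state. Tissue of this kind contains neurons, glia and vessel cells together, and in such bulk samples fewer cells of a type and less RNA per cell cannot be told apart.

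Genes are given by the Ensembl identifiers of the table. Neither that table nor the RefSeq gene table used here paired these identifiers with names (0 matched), so no roles are given for single genes and the labelled tissue was not checked against markers. Reads per library numbered 15128646 to 29801795. MOD replicate 2 stood apart: 463 genes of the whole table had a value above 5 and over 10 times the next library there, against at most 1 gene in any other library. HI replicate 2 and MOD replicate 12 had levels of some member genes far under those of the other calves, as described for each set of genes. Counting error was small beside the differences between calves. The lowest median read number of a member was 101.5, at which counting error alone gives an interquartile range of at most 0.193, and the lowest read number of any member in any library was 10.

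The members spanned a wide range of expression and of variation. Their interquartile ranges ran from 1.06 to 3.85 on the log2 scale with a median of 1.24, against a median of 0.322 over the 11890 genes from which they were drawn. These ranges are what chose them. Between the highest and the lowest calf, values of a member differed by 4.83 to 1476 times, with a median of 26.8 times. Median values ran from 5.06 to 326, with 61 members under 10 and 7 at 100 or more. The members took 0.430% to 3.95% of the reads of a library, and the median library gave them 0.608%. At the limit of the choice, ENSBTAG00000016613 was the last member with an interquartile range of 1.0554 and a median value of 15.3. The next gene, ENSBTAG00000005163, had one of 1.0546 and a median value of 193, so the limit parted genes of nearly equal variation.

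**Figure D1:**
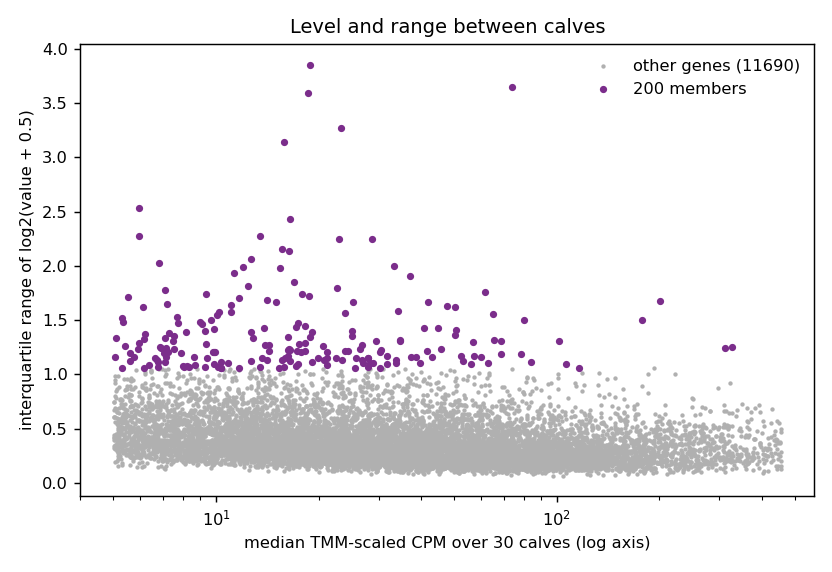
Interquartile range of log2(value + 0.5) over 30 calves (vertical) against the median TMM-scaled CPM (horizontal, log axis), with 1 point per gene. The 200 members (purple) lie above 1.06, and most of the other genes (grey) lie near the median of 0.322.

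The most variable member of all was ENSBTAG00000049993, whose values fell into 2 separate levels. It lay at 0.728 to 26.6 in HI calves, with a median of 17.6, and at 0.524 to 52.5 in MOD calves, with a median of 21.2. In 10 calves it was at 1.348 or lower and in the other 20 at 17.3 or higher, and no calf lay between. Both levels occurred on both diets, as 9 HI and 11 MOD calves were at the upper one. The gap was 3.26 on the log2 scale, the widest of any member. Its highest Spearman correlation with any other member was 0.43.

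Other members also had a gap between 2 sets of calves, called levels here although values within the upper set spread wider than the gap. ENSBTAG00000006383 was at 15.7 or lower in 12 calves and at 43.8 or higher in 18, of which 9 were HI and 9 were MOD. In HI calves its values ran from 1.94 over a median of 80.9 to 260, and in MOD calves from 4.28 over 73.3 to 256. ENSBTAG00000018499 was at 1.64 or lower in 5 calves and at 5.5 or higher in the remaining 25, of which 12 were HI and 13 were MOD. With 5 or more calves needed on each side, 5 members had a gap of at least 1 on the log2 scale, and the median of the widest gap was 0.42. Among all 11890 genes 8 had such a gap, or 0.0673%, and a gene of this kind tends to have the wide interquartile range that chose the members.

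ENSBTAG00000025385 was the 2-level member whose levels were unevenly spread over the diets. All 15 HI calves were at its upper level, from 33.2 to 480 with a median of 62. Of the MOD calves 8 were at the upper level, from 42 to 142, and 7 at the lower one, from 2.67 to 10.4. The 480 belonged to HI replicate 2 and the next highest HI calf was at 89. The lower level therefore occurred in MOD calves only among these 30, and the upper levels of the groups overlapped. The test of this difference is given with the other dietary comparisons. Its highest correlation with another member was 0.48.

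**Figure D2:**
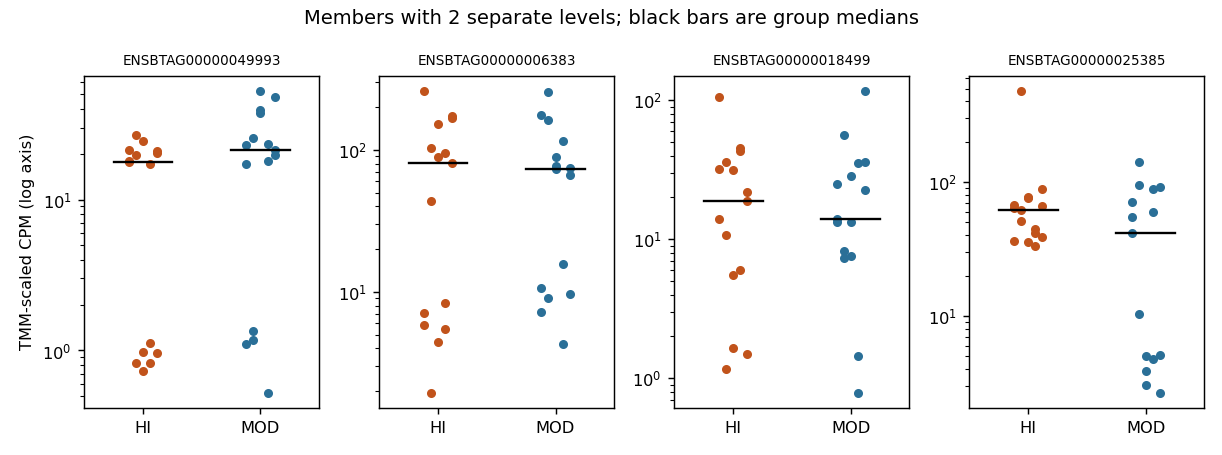
TMM-scaled CPM (log axis) of the 4 members with the widest gaps in each of 15 HI (orange) and 15 MOD (blue) calves, with black bars for group medians. The first 3 genes have low and high calves on both diets, and the lower level of ENSBTAG00000025385, 10.4 or less, holds 7 MOD calves and no HI calf.

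Most members varied together in a small number of correlation blocks. A block was a set of at least 8 members joined at a mean Spearman correlation of 0.5 or more across the 30 calves. There were 7 such blocks with 147 members, while 35 members formed 10 groups of 2 to 7 and 18 stood alone. A correlation of at least 0.7 with another member was found for 172 members, and of at least 0.9 for 80. These 2 counts were not made for other sets of genes, so they are not read as a trait of the members. Over all pairs of members 8.05% had a correlation of 0.7 or more in size, against 3.89% of the pairs of the 11890 genes, and the median size was 0.304 against 0.281. These correlations use the same values that chose the members and are given as a description. The first 2 principal components of the members held 38.3% and 20.2% of their variance.

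**Figure D3:**
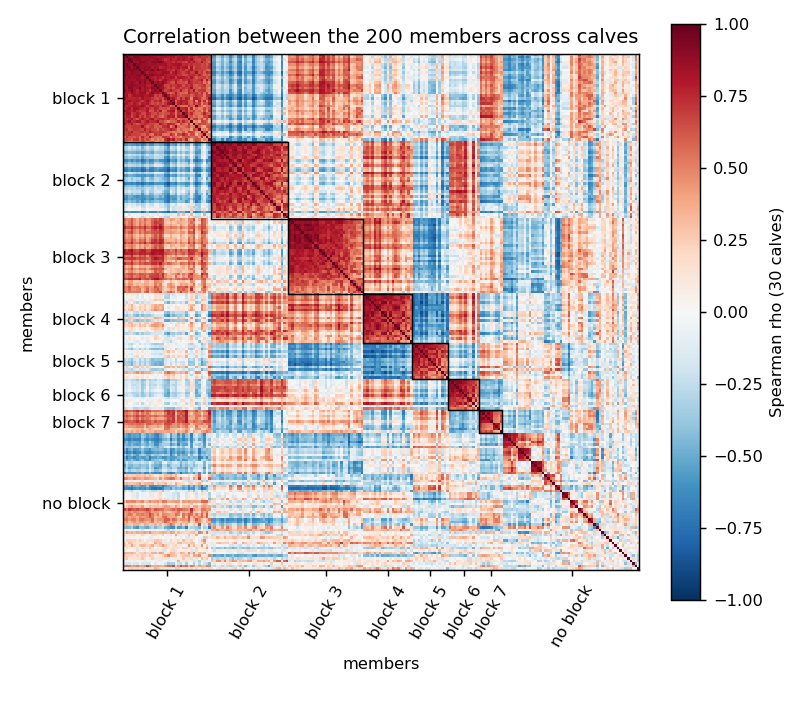
Spearman correlation across 30 calves between each pair of the 200 members, ordered by block (red positive, blue negative, outlines for the 7 blocks). Blocks 1 to 7 hold 34, 30, 29, 19, 14, 12 and 9 members, and the 53 members in no block fill the lower right.

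The level of a block in a calf is the mean, over its genes, of log2(value + 0.5) less the median of that gene over all calves. A level of 1 is thus on average a doubling of value + 0.5 over the gene medians, and 0 is no mean difference from these medians. Replicates and diets were then compared on these levels without a test, because the genes were chosen on the same values.

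Block 1 had 34 members, and a few calves lay far above the rest. Its level ran from -0.98 in MOD replicate 10 to 2.70 in HI replicate 7. Close behind the latter came MOD replicate 4, MOD replicate 12, HI replicate 2 and MOD replicate 2, the last at 2.13, so the 5 highest calves were from both diets. The central members, those with the highest mean correlation with the rest of the block, show this pattern. ENSBTAG00000012088 ran from 19.1 over a median of 30.9 to 257 in HI calves and from 18.6 over 41.7 to 253 in MOD calves. ENSBTAG00000020528 ran from 6.27 over 11.9 to 91.7 in HI and from 7.76 over 14.8 to 107 in MOD. The groups overlapped almost completely in both genes. The widest range in the block was that of ENSBTAG00000008103, the third widest of all members, at 3.05 to 194 in HI and 1.68 to 1066 in MOD, where MOD replicate 2 was highest. The median correlation within block 1 was 0.73, and it was 0.74 among HI calves, 0.69 among MOD calves and 0.70 without HI replicate 2, MOD replicate 2 and MOD replicate 12.

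Block 2 had 30 members and the opposite shape, with most calves close together at the top and a few far below. Its level ran from -3.39 in HI replicate 2 to 0.64 in MOD replicate 8. MOD replicate 12 was second lowest at -2.92, then MOD replicates 7, 1 and 4 at -1.81, -1.59 and -1.06. ENSBTAG00000019309, a central member, ran from 0.689 over a median of 8.65 to 12.9 in HI calves and from 0.876 over 6.89 to 14.9 in MOD calves. The other, ENSBTAG00000017837, ran from 2.45 over 36.8 to 50.8 in HI and from 3.79 over 26.9 to 57.9 in MOD. In HI replicate 2, the lowest calf for both, these values rest on 16 and 57 reads. The median correlation was 0.75, with 0.64 among HI calves, 0.81 among MOD calves and 0.68 without the 3 libraries.

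Block 3 had 29 members and included 4 of the 7 members with a median of 100 or more. Its level ran from -1.41 in HI replicate 3 to 2.23 in HI replicate 7, with MOD replicate 4 at 2.13. The lowest 5 calves were HI replicates 3, 1 and 4, MOD replicate 14 and HI replicate 10. ENSBTAG00000002299 ran from 7.72 over 17.1 to 75.4 in HI and from 6.87 over 17.8 to 64.1 in MOD. ENSBTAG00000014575 ran from 7.65 over 25.2 to 185 in HI and from 9.02 over 22.7 to 93.6 in MOD. Medians of the groups were close in both central genes. The median correlation was 0.73, with 0.79 among HI calves, 0.60 among MOD calves and 0.74 without the 3 libraries.

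Block 4, with 19 members, and block 5, with 14, varied in opposite directions. The level of block 4 ran from -2.36 in HI replicate 2, followed by HI replicate 3 at -1.72, to 1.37 in HI replicate 7. That of block 5 ran from -1.22 in HI replicate 7 to 2.03 in HI replicate 3. ENSBTAG00000030792 and ENSBTAG00000014818, central to block 4, spanned 5.7 to 50.2 and 5.12 to 63.8 in HI calves, against 6.58 to 41.7 and 7.47 to 54.3 in MOD calves. ENSBTAG00000015784, central to block 5, ran from 7.22 over 26.9 to 227 in HI and from 16 over 26.8 to 148 in MOD. ENSBTAG00000020512 ran from 2.18 over 5.17 to 34.0 in HI and from 3.5 over 5.73 to 283 in MOD, where the highest value was again that of MOD replicate 2. Median correlations were 0.73 within block 4 and 0.71 within block 5, and 0.75 and 0.78 without the 3 libraries.

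Block 6, with 12 members, was low in a set of calves partly different from that of block 2. MOD replicate 14, HI replicate 3 and HI replicate 10 were lowest, at -2.17, -2.12 and -1.98, and MOD replicate 5 was highest at 0.83. ENSBTAG00000049566 ran from 0.789 over 5.06 to 9.32 in HI and from 0.577 over 5.06 to 9.62 in MOD. ENSBTAG00000012348 ran from 14 over 33.1 to 49.6 in HI and from 5.82 over 31.7 to 60.4 in MOD. Block 7 was the smallest, with 9 members, and its level ran from -0.70 in MOD replicate 6 to 2.12 in MOD replicate 12. Its 5 highest calves, MOD replicate 12, HI replicate 2, MOD replicates 2 and 4 and HI replicate 7, were the same 5 as in block 1.

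**Figure D4:**
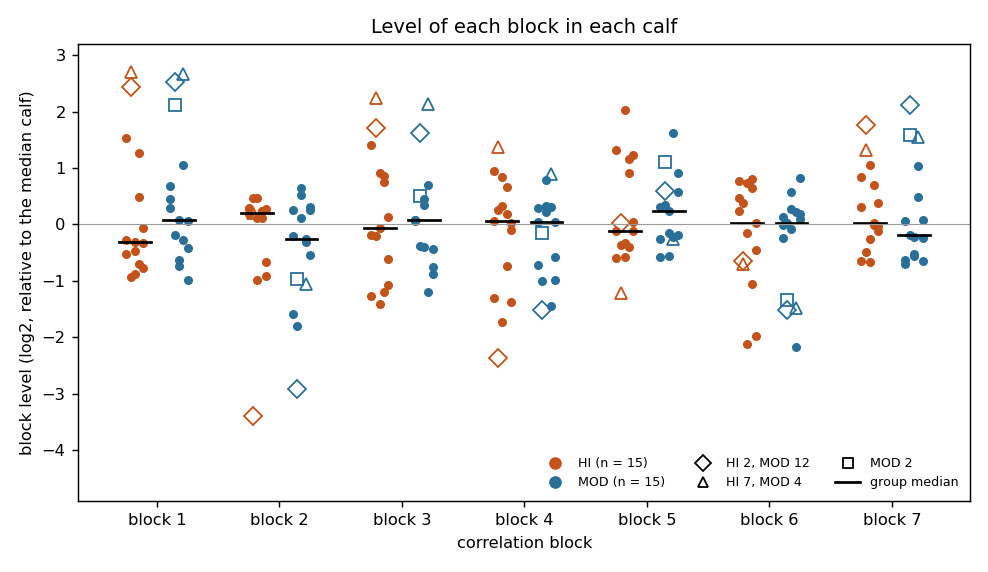
Level of each correlation block (log2, 0 is no mean difference from the gene medians) in 15 HI (orange) and 15 MOD (blue) calves, 1 point per calf. Black bars are group medians and open symbols mark 5 named calves. HI replicate 2 and MOD replicate 12 lie at -3.39 and -2.92 in block 2, and the same 5 calves lead blocks 1 and 7.

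Levels of the blocks were related across the 30 calves. Blocks 4 and 5 had the strongest relation by Spearman correlation (Pearson r = -0.74, Spearman rho = -0.84), and rho was -0.85 among the 15 HI calves, -0.79 among the 15 MOD calves and -0.89 without the 3 libraries. Blocks 1 and 7 rose in the same calves (r = 0.81, rho = 0.67), as did blocks 1 and 3 (r = 0.78, rho = 0.62). Within diets rho was 0.81 in HI and 0.59 in MOD for the first of these pairs, and 0.50 and 0.71 for the second. Blocks 2 and 6 had a rho of 0.66, with 0.50 in HI and 0.68 in MOD. Blocks 1 and 4 were nearly unrelated (rho = 0.03). Without the 3 libraries the relation of blocks 3 and 4 was closer, at a rho of 0.89 against 0.57 with them. The points of such a relation share 1 library per calf and its scaling, and the blocks were parted by these correlations.

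**Figure D5:**
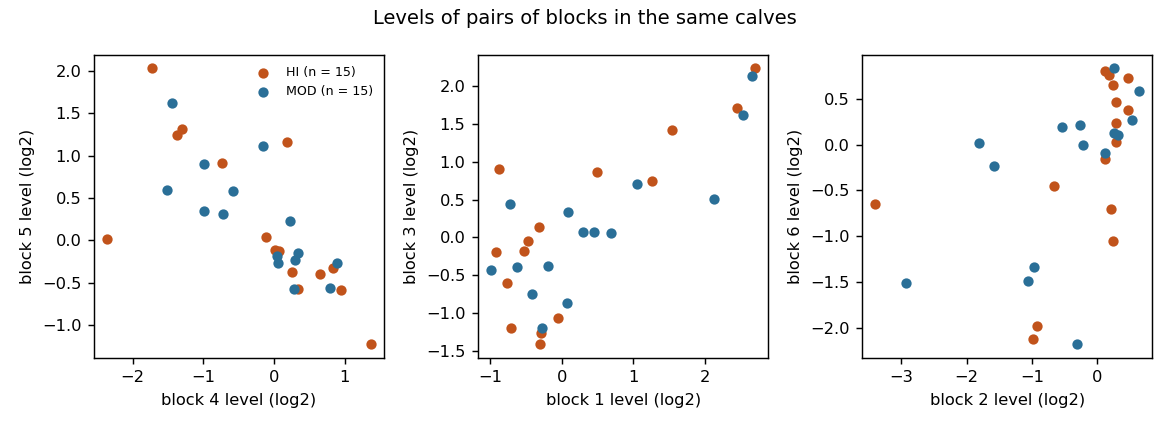
Levels of 3 pairs of blocks (log2, 0 is no mean difference from the gene medians) in the same calves, HI in orange and MOD in blue (n = 15 each). Block 5 falls as block 4 rises (rho = -0.84), blocks 1 and 3 rise together (rho = 0.62), and blocks 2 and 6 are low in partly the same calves (rho = 0.66).

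Genes other than the members also followed the block levels, to an extent that differed between blocks. Among the other genes past the same limits, the level of block 2 had a correlation of at least 0.7 with 997 genes and of -0.7 or lower with 598. For block 4 these numbers were 555 and 578, for block 1 they were 442 and 440, and for block 7 they were 298 and 272. Block 3 had 233 and 314, block 5 had 178 and 114, and block 6 had 77 and 12. Of all pairs of the 11890 genes, 3.89% had a correlation of 0.7 or more in size. As a share of the other genes, the counts of blocks 5 and 6 lay under that value. Those of blocks 3 and 7 were little above it. A block level is a mean over several genes, so its correlations and those of pairs of single genes are unlike measures. These counts were not tested.

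Measures of the libraries moved with several blocks. Read number had a rho of -0.19 to 0.12 with the 7 block levels, of -0.30 to 0.35 among HI calves and of -0.40 to 0.46 among MOD calves. Without the 2 libraries farthest from the median read number, r was 0.42 for block 1, -0.41 for block 2 and 0.47 for block 7. For the other blocks it was then -0.34 to 0.23. The share of reads taken by the 200 most abundant genes, 19.1% to 33.4% over the libraries, was lower where block 3 was higher (r = -0.78, rho = -0.76), with rho = -0.87 in HI and -0.71 in MOD. Without the 2 libraries farthest from the median share r was -0.83. Block 1 was also higher where that share was lower (r = -0.75, rho = -0.51), with rho = -0.34 without the 3 libraries. For block 4 rho was -0.48, and -0.80 without the 3 libraries, and for block 5 it was 0.48 and 0.68. The number of genes with reads, 17800 to 19595, was higher where block 4 was higher (r = 0.66, rho = 0.57), with rho = 0.75 in HI and 0.39 in MOD, and r was 0.60 without the 2 farthest libraries. The part of these measures in the block levels was not tested.

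A few members owed their highest values to MOD replicate 2. It was the highest library for 30 members, HI replicate 7 for 35, HI replicate 2 for 26 and MOD replicate 4 for 22. For 7 members MOD replicate 2 was over 10 times the next library, and no other library was. The most extreme of these, ENSBTAG00000007273, stood at 22735 there and at 550 in the next library, and is named after its values were seen. HI replicate 2 was the lowest library for 49 members. With HI replicate 2, MOD replicate 2 and MOD replicate 12 left out, 140 of the 200 were chosen again.

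The main comparison of the study sets gene expression of calves fed the high plane against that of calves fed the moderate plane. None of the 200 members was called between HI and MOD, where a call needs a Benjamini-Hochberg adjusted p under 0.1 over all 15757 genes tested by limma and a fold change over 1.5. Over all genes tested 0% were called as well, and the smallest adjusted p of a member was 1. The paper, which tested with edgeR at the same limits, did report genes that differed between the diets. Limma is another test, so the absence of calls here is no repeat of that result. The edgeR run made here is given below. At an unadjusted p under 0.05 there were 3 members, or 1.5%, against 0.628% of all genes tested. Of these 1 was higher in HI (background 0.273%) and 2 were lower (background 0.355%). Both shares, of members and of all genes, lie below the fraction of 0.05 that this limit passes on average where nothing differs. No excess of members is read from them, and without HI replicate 2 the share of all genes was 4.21%. A fold change over 1.5 was found in 13 of 200 members, or 6.5%, against 0.514% of all genes tested, and standard errors were larger too (median 0.38 against 0.15 on the log2 scale). A choice made on the range over all calves favours genes with both, and a dietary difference would add to that range. The 2 cannot be told apart here, so neither value is read as a result about diet. Their median log2 fold change of HI over MOD was -0.01, equal to the -0.01 over all genes tested, with 98 members higher in HI and 102 lower.

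By block, fold changes leaned 1 way in some sets of genes that vary together and so do not count as separate observations. In block 1, 29 of 34 members had a lower mean in HI, with a median log2 fold change of -0.21. The block level was 0.21 ± 1.2 in HI and 0.45 ± 1.17 in MOD (SD, n = 15 each), so the difference was far within the spread between calves. In block 2, 29 of 30 members had a higher mean in HI, with a median of 0.28, and levels of -0.20 ± 1.0 and -0.50 ± 1.0. The other blocks had differences of -0.03 to 0.10 between mean levels, and no block held a member at an unadjusted p under 0.05. Without the 3 libraries the differences were -0.10 for block 1, 0.31 for block 2, 0.21 for block 7 and 0.10 for block 4, and that of block 6 turned from 0.10 to -0.05.

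The members with the smallest p in each direction stood outside the blocks, apart from 1 of block 2. ENSBTAG00000025385, the 2-level gene described above, had the highest log2 fold change of HI over MOD of all 15757 genes tested, at 1.53 (standard error 0.56, limma p = 0.0105, adjusted p = 1), and 10 of 15 HI calves were above the MOD median. A rank-sum permutation test gave p = 0.269 for it. Among calves at the upper level the MOD median, 79.5, was above the HI median, 62.0, opposite in direction to the fold change. The next in this direction, ENSBTAG00000017595 of block 2, ran from 1.12 over 11.3 to 28.1 in HI and from 0.807 over 7.24 to 15.7 in MOD (limma p = 0.158, adjusted p = 1).

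In the other direction, ENSBTAG00000007075 ran from 1.78 over a median of 12.8 to 33.6 in HI calves and from 2.61 over 24.7 to 76.5 in MOD calves. On the log2 scale HI less MOD came to -0.96 (standard error 0.44, limma p = 0.0388, adjusted p = 1), and 14 of 15 HI calves lay below the MOD median. With limma-voom and quality weights the log2 fold change was -0.01, while edgeR and DESeq2 each gave -1.11. That fit differs from the main one in several steps, and which of them moved the value was not tested. ENSBTAG00000020127 ran from 1.43 over 7.52 to 24.5 in HI and from 3.13 over 12.1 to 37 in MOD, a log2 fold change of -0.59 (standard error 0.29, limma p = 0.049, adjusted p = 1). Ranges of the groups overlapped in each of these genes.

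The number of members at an unadjusted p under 0.05 rested on single libraries. Without HI replicate 2 it was 12, or 6% of members against 4.21% of all genes tested, with 8 higher in HI against a background of 2.83%. Without MOD replicate 7 it was 5, against 0.477% of genes. It was 1 without any one of HI replicates 4, 5 and 9 or MOD replicates 5, 6, 8, 9 and 12, where 0.541% to 0.706% of genes passed. On reads recovered from the table, the edgeR quasi-likelihood test called 0 members and 0.0756% of 15875 genes, and 13 members were at an unadjusted p under 0.05, while 2.43% of genes were. Of these, 12 were lower in HI, against 2.11% of genes, and each of the 12 had its highest value in MOD replicate 2. Without that library edgeR called 0 genes, and 3 members were at an unadjusted p under 0.05, against 0.71% of genes tested. The rank-sum permutation test (100000 resamples, two-sided) gave 3 members, against 1.4% of genes tested, of which 1 was higher in HI (background 0.654%), and 0 at an adjusted p under 0.1.

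More members had a wider range among HI calves than among MOD calves. The members vary together in blocks and were chosen on ranges over these same calves. They do not count as separate observations, so the counts below are a description. The interquartile range was wider in HI for 131 of 200 members, or 65.5%, while among the 11890 genes it was wider in HI for 39.9%. The median over members was 1.31 in HI and 1.13 in MOD. Without HI replicate 2 the number was 107, or 53.5%, against 32.7% of the 11890 genes, and it was 145 without MOD replicate 12, or 72.5% against 49.9%. It was 142 without HI replicate 2, MOD replicate 2 and MOD replicate 12, or 71% against 48.9%. The excess was not in every block, as the mean distance of a calf from its group median was larger in HI for 25 of 29 members of block 3 and 10 of 12 of block 6, but for only 2 of 30 in block 2. Over members it was larger in HI for 61.5%, and over all genes tested for 52.3%.

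No single member passed a test of that spread with all libraries. limma on the distances from the group median called 0 of 200 members and 0% of 15757 genes, where a call needs only an adjusted p under 0.1. At an unadjusted p under 0.05 were 6 members, or 3%, while 0.711% of genes were. Both shares lie below the fraction of 0.05 that this limit passes on average where nothing differs. The members were chosen for wide ranges of these same values, so no excess of members is read from them. Of the 6, 5 were more spread in HI (background 0.393%) and 1 in MOD (background 0.317%), and without HI replicate 2 there were 11 against a background of 3.86%. The smallest of these was ENSBTAG00000025385, with a mean distance of 0.58 in HI and 1.88 in MOD (limma p = 0.00118, adjusted p = 1). Without MOD replicate 12 its adjusted p was 0.0462, and it was then the only gene called of 15717, a background of 0.00636%. MOD replicate 12 was at the upper level of this gene. Without it both levels hold equal numbers of MOD calves, so the MOD median lies between the levels. The mean distance in MOD was then 1.89, nearly as with all calves, and this call is given as a description. Without HI replicates 2 and 7 and MOD replicates 2, 4 and 12, the means were 0.42 and 2, and the limma adjusted p was 9.34e-07, again the only gene called (background 0.00637%). Those 5 libraries were chosen after the data were seen, and HI replicate 2 holds the highest HI value of this gene. Leaving it out narrows the HI spread. Without the 5 libraries the MOD calves again divide evenly over the 2 levels, and their median lies between these. That p is therefore given as a description. With all libraries, the spread test sees the lower level held by 7 MOD calves.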

How the data were processed

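Per the labels and the methods of the study, the authors prepared stranded mRNA libraries, trimmed adapters with Cutadapt, used STAR for alignment to ARS-UCD1.2 and for counting, and tested with edgeR. The deposited signal equals CPM of genes scaled by TMM factors, with 1 column per calf. Within each column 100% of non-zero values came out as whole reads when divided by what 1 read is worth (tolerance 0.01), and those reads served the edgeR, DESeq2 and limma-voom fits.

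Members and lists were chosen with earlier results of these data known. limma with a mean-dependent prior variance was fitted to log2(value + 0.5) for genes that reached 0.5 in 15 or more libraries, HI against MOD, two-sided, adjusted by Benjamini-Hochberg over all genes tested. Fold changes on this scale understate the change of low genes. Spread was tested by limma on distances from the group median, with a common prior variance for all genes. Blocks came from average linkage on 1 minus the Spearman correlation, parted at 0.5. Named genes were the 2 most central of each of the 6 largest blocks, the 3 widest ranges, the genes at the limit, the 2 smallest p in each direction, the 4 widest gaps and the 2 least correlated members, any exception being stated. Marker and pathway lists need gene names and were not used. Fits were tested on simulated data. R 4.3.3, limma 3.58.1, edgeR 4.0.16, DESeq2 1.42.0, Python 3.11.15, scipy 1.17.1 and pandas 2.3.3 were used. The rank-sum test drew 100000 resamples.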

Additional observations from a re-analysis of the deposited data

How the results depend on the processing

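No member was called between HI and MOD under any alternative run: both other pseudocounts, both other filters, median-ratio scaling, edgeR, DESeq2, limma-voom, an adjusted p under 0.05 with no fold limit, and each library or set of libraries left out. Members at an unadjusted p under 0.05 numbered 13 with edgeR quasi-likelihood (2.43% of all genes tested there), 11 with limma-voom and quality weights (3.6%), 6 without 5 libraries (HI replicates 2 and 7, MOD replicates 2, 4 and 12, 2.31%) and 1 to 12 with 1 library left out (0.477% to 4.21%). Members called for spread were 1 without those 5 and 0 to 1 without HI replicate 2, MOD replicate 2 or MOD replicate 12 in turn (1 without MOD replicate 12), and no other single library was left out of that test. Blocks numbered 4 without the 5 libraries, 4 when parted at a mean correlation of 0.4, and 5 to 8 with 1 library left out. The largest held 57 members with Pearson correlation, 75 when parted at 0.4, and 33 to 64 with 1 library left out, being 64 without HI replicate 8 or MOD replicate 2 and 60 without MOD replicate 3. Of pairs in 1 block, 86.5% to 98.7% stayed together with 1 library left out, 83.4% without 3 libraries, 87.3% after subtracting diet medians and 42.4% with complete linkage. Complete linkage placed 87 members in blocks, against 147 in the main run. Ranking by standard deviation kept 97 of the 200 members. Members wider in HI numbered 107 to 145 with 1 library left out. The median correlation between members ran from 0.042 to 0.064 there, and its size from 0.288 to 0.315. The log2 fold changes of the 4 genes named for diet kept their direction in each of 39 settings, with adjusted p from 0.749 to 1. The 5 libraries, the rank-sum test and the count of wider ranges were chosen after seeing the data. The cause of these changes was not tested. No paired analysis was possible because HI and MOD calves share only a number given in accession order.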

Other observations

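Members outside the blocks also held close sets. The largest had 6 members, among them ENSBTAG00000000665 and ENSBTAG00000013008, which had interquartile ranges of 2.54 and 2.43. Both of these and the pair that follows were named after their values were seen. The closest pair of all members, ENSBTAG00000020887 and ENSBTAG00000012953 of block 2, had a Spearman correlation of 0.98 across the 30 calves and median values of 50.2 and 55.9.

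The 2 members least related to any other were ENSBTAG00000006720 and ENSBTAG00000038430, whose highest correlations were 0.41 each. ENSBTAG00000006720 ran from 2.71 over a median of 5.61 to 13.6 in HI calves and from 4.44 over 7.39 to 17.9 in MOD calves. ENSBTAG00000038430 ran from 3.07 over 11.9 to 16.3 in HI and from 3.98 over 13 to 96.8 in MOD, where MOD replicate 2 was highest. Their groups overlapped.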
